A study of Rattus norvegicus with 18 samples.

Results

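Germ cells from female rat fetuses of dams fed a high-fat diet (HFD) differed in CpG methylation from those of control dams at 1832 regions listed by the study's authors, and at most of these the HFD cells held less methylation. The regions are every row of the authors' deposited table for this comparison, 1832 of the 61661 regions in the series' 4 full tables of differentially methylated regions (DMRs). The fetuses were Sprague-Dawley rats of the genotype GFP-GCS in every group; the transgene marks germ cells with a green fluorescent protein, by which the cells, called gonocytes in the labels, were sorted. HFD females at gestational day (GD) 16 (3 samples) had mothers on a diet with 45% of energy from fat, and control females at GD16 (3 samples) had mothers on a diet with 18%, with 5 dams per diet. The series also holds HFD males (4 samples) and control males (4 samples) at GD16 and control males at GD18 (4 samples). Gestation was counted from the day on which sperm were found (day 0). The labels do not say which samples shared a litter or whether fetuses were pooled, nor which 4 of the series' samples had been taken over from an earlier project.

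Fetal germ cells remove most of the DNA methylation of their genome after they settle in the gonad, imprinted loci included. New methylation is laid down before birth in the male germ line and only after birth, in growing oocytes, in the female. DNA methyltransferases add the mark to cytosines in CpG dinucleotides, and it is lost by dilution at cell division and by oxidation through TET enzymes. CpG islands, dense stretches of CpGs that often cover promoters, carry little methylation in most cells.

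Each level below is the authors' mean for a group over the CpGs of a region, in percent, and differences are in percentage points, HFD minus control. Values per sample and coverage were not available for use, so the spread between samples and the depth behind each level are unknown, no level carries an interval, and no difference between diets was tested over samples. The words higher and lower are used of listed regions only. Every listed region had at least 5 CpGs, a difference of at least 10.1 points and a false discovery rate (FDR) of at most 0.05. The FDRs of the authors' deposited table fit an adjustment made within each direction, over 1496 candidate falls and 584 candidate rises (2080 regions). Of these 88.1% were listed (87.8% of the candidate falls and 88.9% of the candidate rises), so the list is close to the whole of a set that was selected beforehand. The identity of the sorted cells cannot be read from these means: none of the 6 germ cell markers looked for had a listed region, against 1 of 6 gonadal somatic markers (Wnt4) and 1 of 6 blood and endothelial markers (Runx1). The part of other cell types in the differences was not tested.

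The promoters of Pogk and Pgc, whose regions had the largest falls among promoters, are printed first because they differ in CpG content, together with the promoters of Ubl4a on the X chromosome and of Eid2b, which was higher in HFD females. Each sequence is RefSeq's window (GRCr8) from 250 bases before to 50 bases after the gene's start, 5′ to 3′ on the gene's strand, with CpGs in capitals. The deposited coordinates come without a named build, and the place of each DMR within its window is not marked.
Pogk: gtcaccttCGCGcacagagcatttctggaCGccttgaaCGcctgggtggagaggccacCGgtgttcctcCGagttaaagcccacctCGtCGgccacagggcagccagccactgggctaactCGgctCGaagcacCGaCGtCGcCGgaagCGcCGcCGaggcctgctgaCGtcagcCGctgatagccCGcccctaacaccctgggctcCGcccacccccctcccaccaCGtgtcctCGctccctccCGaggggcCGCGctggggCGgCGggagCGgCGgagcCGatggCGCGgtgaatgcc
Pgc: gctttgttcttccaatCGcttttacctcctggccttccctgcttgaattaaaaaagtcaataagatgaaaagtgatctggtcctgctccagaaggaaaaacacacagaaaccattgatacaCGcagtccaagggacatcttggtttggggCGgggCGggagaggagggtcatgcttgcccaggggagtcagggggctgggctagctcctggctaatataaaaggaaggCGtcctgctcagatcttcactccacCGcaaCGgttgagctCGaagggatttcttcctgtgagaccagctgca
Ubl4a: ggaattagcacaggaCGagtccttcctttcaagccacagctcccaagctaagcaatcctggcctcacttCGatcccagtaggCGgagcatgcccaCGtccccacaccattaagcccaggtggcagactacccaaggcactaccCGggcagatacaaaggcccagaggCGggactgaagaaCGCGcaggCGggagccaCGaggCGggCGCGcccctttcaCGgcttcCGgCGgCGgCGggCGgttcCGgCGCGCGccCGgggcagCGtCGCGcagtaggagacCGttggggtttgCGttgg
Eid2b: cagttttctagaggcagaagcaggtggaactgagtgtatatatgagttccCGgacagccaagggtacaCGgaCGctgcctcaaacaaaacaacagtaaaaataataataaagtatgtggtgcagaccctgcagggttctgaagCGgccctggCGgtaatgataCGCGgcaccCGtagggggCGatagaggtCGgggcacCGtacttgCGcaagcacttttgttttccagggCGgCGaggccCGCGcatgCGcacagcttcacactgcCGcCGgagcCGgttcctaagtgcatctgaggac
The Pogk window lies at chr13:81196277-81196576 (minus strand), the Pgc window at chr9:20763171-20763470 (minus), the Ubl4a window at chrX:157305331-157305630 (minus) and the Eid2b window at chr1:92672869-92673168 (plus), all in GRCr8. Pogk has 33 CpGs in its window, a number that 7.53% of all 33469 promoter windows reach, and Ubl4a has 29, reached by 11.5%. Pgc, which encodes the gastric protease precursor progastricsin, has 8, reached by 47.6%, and Eid2b has 20, reached by 24.2%. The median over all windows is 7, so the Pgc window is close to it and the Pogk window is far above it.

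Methylation was lower in HFD females at 1313 regions and higher at 519, so 71.7% of the listed regions were lower (exact Clopper-Pearson 95% interval 69.5 to 73.7%, which covers counting over regions that share the same libraries and not the spread between animals). At the lower regions the median level was 2.4% in HFD females (interquartile range 1.4 to 3.8%) and 16.1% in control females (13.7 to 22.1%). The higher regions were close to the mirror image, with a median of 15.2% in HFD females (13 to 19.9%) and 2.0% in control females (0.5 to 3.5%). Most differences were small: 817 of the lower and 348 of the higher regions differed by 10 to under 15 points. A difference of 20 points or more was reached at 300 lower regions (22.8%) and 89 higher regions (17.1%), and one of 50 points or more at 19 lower and 4 higher regions.

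**Figure D1:**
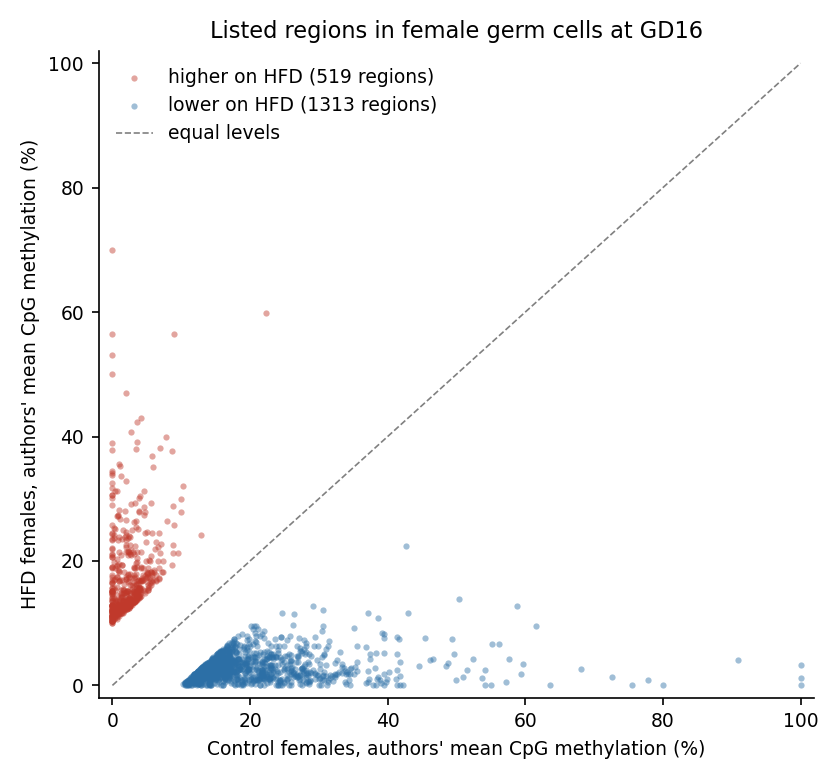
Authors' mean CpG methylation (%) of each of the 1832 listed regions in HFD females (y axis) against control females (x axis); red points are regions higher on HFD, blue points regions lower on HFD, and the dashed line marks equal levels. The band without points along the line follows from the authors' minimum difference, and in both directions the group with less methylation lies mostly under 5%.

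In both directions the group with less methylation was nearly devoid of it. HFD females were under 5% at 1145 of the 1313 lower regions (87.2%) and were listed at 0% at 44, with a maximum of 22.4%. Control females at the same regions reached 25% or more at 237 (18.1%) and 50% or more at 27. At the higher regions, HFD females reached 25% or more at 66 of 519 (12.7%) and 50% or more at 6, while control females were under 5% at 454 (87.5%) and were listed at 0% at 99 (19.1%). The highest level in HFD females at any listed region was 70.0%, and that in control females was 100%.

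The regions with the widest gaps lay outside genes and were lower in HFD females. An intergenic region at chr8:117844154-117844272 was listed at 0% in HFD females and 100% in control females. One at chr3:62078700-62078845 stood at 1.2% in HFD females and 100% in control females, and another at chr1:98643621-98643675 at 3.3% in HFD females and 100% in control females. The authors deposited a separate table of rises of at least 50 points, and for females it holds 4 regions, all of which were listed at 0% in control females. These were the introns of Tenm3 (70.0% in HFD females) and Cux2 (50.0%) and intergenic regions at chr3:165225627-165225701 (56.5%) and chr15:105529476-105529610 (53.1%).

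Among regions assigned to a named gene (784 regions of 687 genes, 563 lower, or 71.8%, and 221 higher, with a median difference of -11.3 points), the largest falls covered genes of several functions. An intron of Abcc4, a transporter that exports cyclic nucleotides and drugs, held a region of 8 CpGs at chr15:103703122-103703520 within an LTR retrotransposon, at 0% in HFD females and 75.5% in control females. An exon of Stub1, a co-chaperone and ubiquitin ligase, stood at 1.3% in HFD females and 72.6% in control females over 9 CpGs at chr10:15199898-15199951. These are the only named regions that were over 70% methylated in control females. An intron of Abcc8, a subunit of the ATP-sensitive potassium channel of beta cells, was at 1.9% in HFD females and 59.4% in control females, and an exon of Pklr, the pyruvate kinase of liver and red cells, was at 0% in HFD females and 54.2% in control females.

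Ntrk2, the receptor for brain-derived neurotrophic factor, had the largest fall among regions of 10 CpGs or more. Its exonic region at chr17:5998978-5999130 (11 CpGs) was at 2.5% in HFD females and 54.1% in control females, with an FDR of 3.63e-07 in the authors' deposited table. A second Ntrk2 region, in an intron, was at 2.9% in HFD females and 35.2% in control females. The other largest falls were at the transcript end of Siah3, of the Siah ubiquitin ligase family (6.6% in HFD females, 55.2% in control females), and in introns of Kazn (4.3% in HFD females, 52.4% in control females) and of Nos1ap, an adaptor of neuronal nitric oxide synthase (3.1% in HFD females, 48.5% in control females).

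The 10 largest rises with a gene name were in regions of 5 to 10 CpGs, beside a median of 6 over all higher regions. The Tenm3 region, 5 CpGs in 24 bp at chr16:46594560-46594583, lies in an intron and in a CpG island, and the neighbouring region at chr16:46594414-46594555 was also higher, at 28.1% in HFD females and 3.9% in control females. Tenm3 encodes a teneurin, an adhesion protein of neurons. The Tenm3 island region and the Cux2 region carry an FDR of 0 in the authors' deposited table, where 5 regions have a p of 0, which gives no order among them. An intron of Calb1, the calcium-binding protein calbindin, was at 56.4% in HFD females and 8.9% in control females. The 3' UTR of Map1b, a microtubule-associated protein of axons, was at 47.0% in HFD females and 2.0% in control females, and a second Map1b region beside it was also higher (13.6% in HFD females, 3.1% in control females).

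An exon of Acr, the sperm protease acrosin, stood at 42.9% in HFD females and 4.1% in control females. The transcript end of Trim71, an RNA-binding regulator of early development, was at 59.8% in HFD females and 22.3% in control females over 10 CpGs at chr8:122552964-122553098, with an FDR of 6.11e-09 in the authors' deposited table. Of all regions higher in HFD females it had the highest control level. The remaining largest rises were in introns of Prkcel1 (39.1% in HFD females, 3.6% in control females), Cdca7l (33.8% in HFD females, 0% in control females) and Lpar1, a lysophosphatidic acid receptor (33.7% in HFD females, 1.2% in control females), and in an exon of Pfkm.

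**Figure D2:**
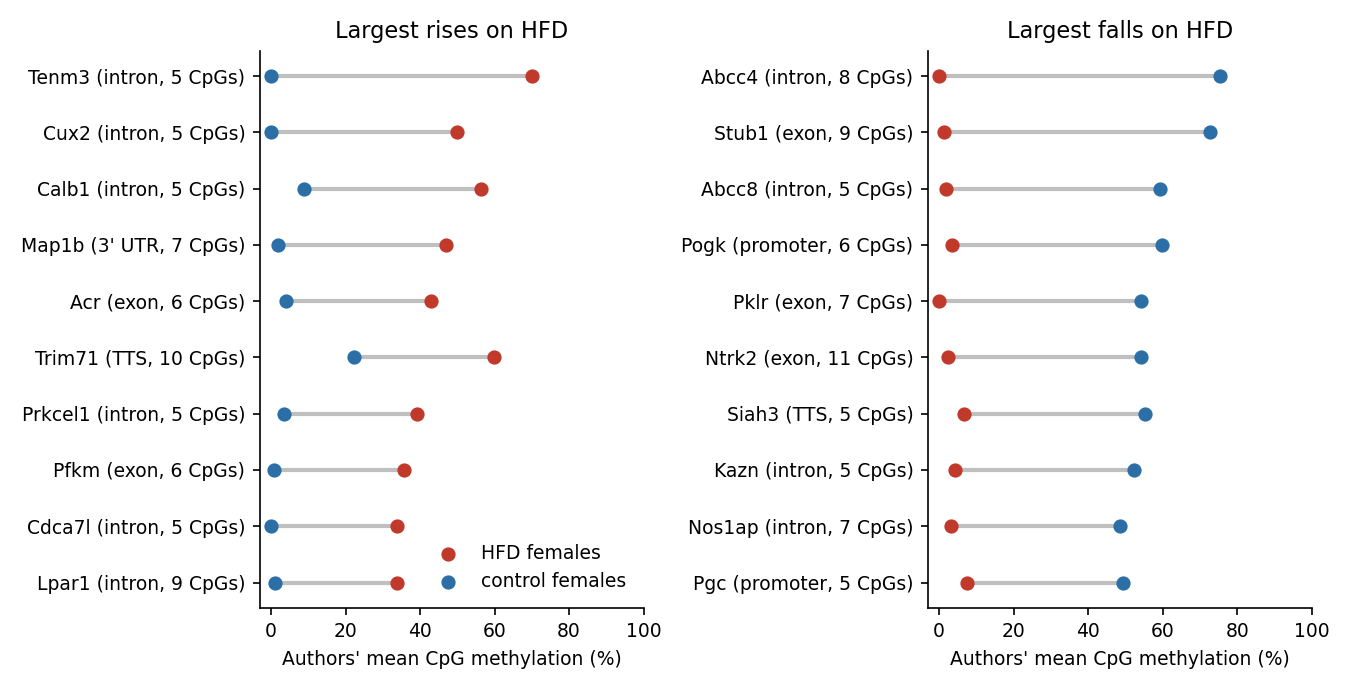
Authors' mean CpG methylation (%) in HFD females (red) and control females (blue) at the 10 named regions with the largest rises (left panel) and the 10 with the largest falls (right panel), with the annotation class and CpG number in brackets; grey bars join the means of a region. Abcc4 has the widest gap on the right, 0% against 75.5%, and Tenm3 on the left, 70.0% against 0%; no error bars are drawn since no values per sample were available for use.

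Regions with 10 CpGs or more, whose means rest on more sites, showed smaller gaps. Ntrk2 had the largest fall among all of these, followed by intergenic regions at chr16:82473890-82473959 (2.5% in HFD females, 41.4% in control females) and chr10:13813402-13813571 (3.7% in HFD females, 41.8% in control females). At named genes the next falls in size were at the promoter of Ubl4a, a factor of tail-anchored protein targeting (2.8% in HFD females, 33.7% in control females), in an exon of Otof, the hair cell calcium sensor otoferlin (3.2% in HFD females, 31.1% in control females), and in an intron of Eml1, a microtubule-associated protein (1.3% in HFD females, 26.8% in control females). The 10 largest falls with a gene name included 4 promoter regions. Promoters make up 12 of the 284 lower regions with 10 CpGs or more. That base also holds 142 intergenic regions, which lie outside genes, so the 2 counts are not on the same footing. Besides Ubl4a, Susd4, a complement inhibitor, was at 2.3% in HFD females and 27.7% in control females, Ssbp4 at 0.8% in HFD females and 25.4% in control females, and Chmp5, a subunit of the ESCRT-III membrane remodelling complex, at 1.6% in HFD females and 21.8% in control females. Introns of Mpped1, Camta1 and Lef1, a transcription factor of Wnt signalling, were at 0.9%, 4.6% and 2.5% in HFD females, against 24.4%, 23.8% and 21% in control females. The largest rises with a gene name after Trim71 were in an intronic CpG island region of Afg1l with 18 CpGs (25% in HFD females, 1.6% in control females) and in an exon of Polrmt, the mitochondrial RNA polymerase, with 15 CpGs (22.5% in HFD females, 2.6% in control females). Introns of Kntc1, Lama1, Zbtb40, Nop53, Srrm2, Slc45a1 and Ntm rose by 14.4 to 17.9 points.

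By position, the share of lower regions lay near that of the whole list in the large classes. It was 71.4% of 1000 intergenic and 70.0% of 574 intronic regions, and 75.6% of 135 exonic regions. The 57 promoter regions were lower in 45 cases (78.9%) and the 37 transcript end regions in 30 (81.1%). In 3' UTRs 19 of 28 were lower (67.9%), but 2 of the 6 with 10 CpGs or more. The exact intervals of all these shares include 71.7%. Of the 19 CpG island regions 11 were lower (57.9%), and of the 99 regions in repeats 64 were lower (64.6%), with 39 of 58 in SINEs, 10 of 18 in LTR elements (1 of the 5 with 10 CpGs or more) and 5 of 8 in LINEs. The X chromosome held 33 regions, 20 of them lower (60.6%). Over the autosomes the share ran between 59.4% on chromosome 20 (38 of 64) and 83.8% on chromosome 13 (57 of 68). These extremes were picked from all autosomes by their shares. Their exact intervals (46.4 to 71.5% and 72.9 to 91.6%) are not adjusted for that choice and cover counting over regions only. No difference between chromosomes can be read from them.

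**Figure D3:**
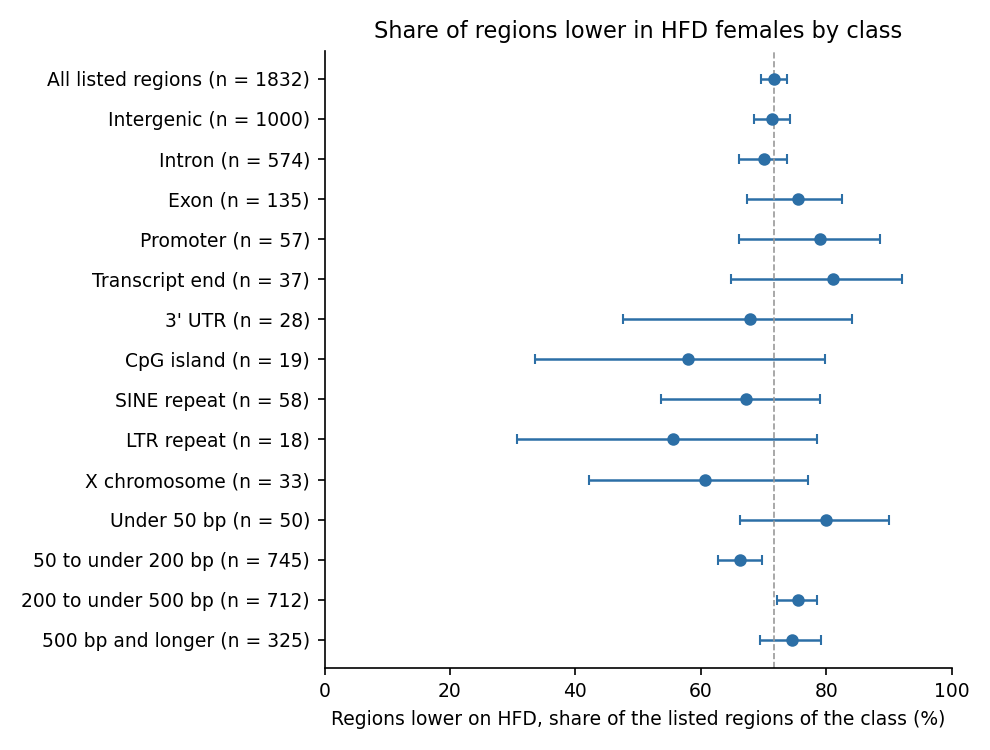
Share of listed regions that were lower in HFD females (%, x axis) by annotation class, repeat class, X chromosome and region length, with the number of regions in brackets; points are shares, bars are exact 95% binomial intervals over regions, and the dashed line is the share over all 1832 regions (71.7%). Regions of 50 to under 200 bp lie below the line with 66.3%, and regions of 200 to under 500 bp above it with 75.4%.

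Short regions differed most. The median absolute difference was 21.6 points in the 50 regions under 50 bp, 16.8 points at 50 to under 200 bp, 11.9 points at 200 to under 500 bp and 11.2 points at 500 bp and longer. It fell with CpG number in the same way, with 14.85 points in the 478 regions of 5 CpGs and 11.1 points in the 93 regions of 15 or more. Of these 93 regions 66 were lower in HFD females (71.0%), beside 71.7% of the whole list. The 6 regions with the most CpGs, 1 of them intergenic, were all lower in HFD females. There were 31 CpGs in the promoter of Hsp90aa1, the inducible cytosolic chaperone HSP90, at 1.5% in HFD females and 11.6% in control females, and 31 in an exon of Git2 at 3.6% in HFD females and 13.7% in control females. With 30 and 29 CpGs, Ntn5 and Slc8a2 were at 3.0% and 1.8% in HFD females, against 15.8% and 14.1% in control females. Regions within 1000 bp of each other formed 19 pairs, of which 15 shared a direction (11 lower and 4 higher), with a median gap of 43 bp.

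At promoters the falls were led by Pogk, a KRAB domain protein derived from a transposable element. Its region of 6 CpGs in 23 bp at chr13:84618960-84618982 was at 3.4% in HFD females and 59.7% in control females. The Pgc region at chr9:15274822-15274917 was at 7.4% in HFD females and 49.4% in control females, with an FDR of 7.71e-09 in the authors' deposited table. Asphd2 was at 1.7% in HFD females and 31.6% in control females, and Mrnip, a factor of the DNA damage response, at 5.4% in HFD females and 33.1% in control females. Of the 12 higher promoter regions, the widest gap was at Defb23. Defb23, of the beta-defensin family, stood at 36.9% in HFD females and 5.8% in control females, and Manea, a mannosidase of the Golgi, at 23.7% in HFD females and 0.2% in control females. C2, a complement component, was at 14% in HFD females and 0.3% in control females, Eid2b at 14.9% in HFD females and 1.2% in control females, and Ppp1r14bl at 17.3% in HFD females and 4.9% in control females. Of the 52 genes at named promoter regions, 30 had a RefSeq window, with a median of 20 CpGs against 7 over all windows. A listed region must hold at least 5 CpGs, so a higher median is built into the selection and is not a result about diet. The 26 windows of lower regions had a median of 22 and the 4 of higher regions 12.5.

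Regions at 5 microRNA genes were listed, and their mature sequences are given with the seed (bases 2 to 8) in capitals, as RefSeq (GRCr8) has them, because the seed decides which messages a microRNA pairs with.
rno-miR-203a-5p: aGUGGUUCuuaacaguucaac
rno-miR-203a-3p: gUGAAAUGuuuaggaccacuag
rno-miR-207: cUUCUCCUggcucuccucccuuu
rno-miR-409b: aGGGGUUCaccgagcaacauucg
rno-miR-2985: uGUUAUAGuaucccaccuaccc
rno-miR-297: aUGUAUGUgugcauguaugcaug
No seed is shared among these. The promoter of Mir203 (7 CpGs in 24 bp at chr6:136704810-136704833) was at 1.0% in HFD females and 37.3% in control females. The promoter of Mir207 was at 6.3% in HFD females and 28.1% in control females, and that of Mir3581, the gene of rno-miR-409b, at 5.5% in HFD females and 15.9% in control females over 31 CpGs. Mir2985 (promoter) was higher, at 20% in HFD females and 5.5% in control females, as was Mir297 (transcript end), at 17.7% in HFD females and 4.4% in control females. The share of microRNA genes with a listed region was not counted, so their number is not set beside the 8.34% over all genes. Whether these microRNAs are expressed in the cells cannot be read from the methylation tables.

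CpG island regions with a gene name were higher at Tenm3, Afg1l and Sohlh2, a transcription factor of early oocytes and spermatogonia (21.8% in HFD females, 2.7% in control females). They were lower at Ocln, the tight junction protein occludin (3.0% in HFD females, 21% in control females), and at a pair of neighbouring regions of Map2k6, a kinase upstream of p38 (2.5% and 1.4% in HFD females, 19.5% and 12.9% in control females). On the X chromosome, Ubl4a and an intron of Arhgef6 (3.1% in HFD females, 27.8% in control females) were lower, and the transcript end of Rnf138l1 (18.8% in HFD females, 0% in control females) and an intron of Il1rapl2 (18.5% in HFD females, 0.8% in control females) were higher.

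Lists of genes that act in the germ line were counted over genes with a region in any of the series' 4 full tables, of which 687 of 8241 (8.34%) had one in the female diet table. Of 31 imprinted genes 2 (6.45%) had one here: an intron of Ppp1r9a was lower (0.7% in HFD females, 12.1% in control females) and an intron of Slc22a3 higher (21.3% in HFD females, 8.8% in control females). Of 23 germline and gametogenesis genes 2 (8.70%) had a region, and Acr, described above, is not in this list: Padi6, an oocyte protein of the cytoplasmic lattices, was lower (3.2% in HFD females, 13.8% in control females) and Sohlh2 higher. Of 16 meiosis genes 2 (12.5%) had a region, both lower. An exon of Rec8, the cohesin subunit of meiotic chromosomes, was at 0.5% in HFD females and 31.3% in control females, and an intron of Hsf2bp, a partner of BRCA2 in meiotic recombination, at 9.5% in HFD females and 20.6% in control females. None of 15 piRNA and transposon silencing genes had a region, and of 30 DNA methylation and chromatin enzymes only an exon of Hdac1, a histone deacetylase, did (14.8% in HFD females, 4.7% in control females).

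Of 20 genes of primordial germ cells and pluripotency, 3 (15%) had a region. An intron of Prdm1, the repressor BLIMP1 that specifies primordial germ cells, was at 1.2% in HFD females and 15.7% in control females over 18 CpGs. The transcript end of Cxcr4, the receptor that guides migrating germ cells, was at 3.1% in HFD females and 14.7% in control females. An intron of Esrrb, an orphan receptor of the pluripotency network, was higher, at 13.7% in HFD females and 2.8% in control females. Of 25 genes of sex determination and gonadal somatic cells 3 (12%) had a region, with 2 regions lower and 2 higher. An intron of Runx1 was lower (3.3% in HFD females, 22.9% in control females). An exon of Wnt4, the signal of ovary formation, was higher (40% in HFD females, 7.8% in control females), and Map3k4 had a region in each direction. Of 24 blood and endothelial genes 3 (12.5%) had a region, beside 8.34% over all genes. Their 4 regions were all lower, as were 71.8% of the regions of all named genes. They lay at Runx1, Flt1 (2 regions, 2.4% and 2.2% in HFD females, 15.5% and 13% in control females) and Vwf (3.3% in HFD females, 13.7% in control females). Runx1 stands in both lists.

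Genes of insulin, lipid and energy metabolism had regions in 11 of 86 genes (12.8%, beside 8.34% over all genes). Of these regions 9 were lower and 4 higher (69.2% lower, beside 71.8% over all named genes). Their median difference was -10.8 points, beside -11.3 points over all named genes. Abcc8 and Pklr, described above, are not in this list. Within it, the largest falls were in introns of Rptor, the mTORC1 subunit raptor (5.0% in HFD females, 23.1% in control females), of Gys2, the liver glycogen synthase (4.3% in HFD females, 18.9% in control females), and of Ppard, a nuclear receptor for fatty acids (1.0% in HFD females, 15.5% in control females), and at the promoter of Abca1, the cholesterol exporter (0.4% in HFD females, 12.6% in control females). The phosphofructokinase genes had both directions within 1 gene. Pfkm had an exonic region at 35.6% in HFD females and 0.9% in control females, and another exonic region at 1.9% in HFD females and 12.7% in control females. Pfkp had an intronic region at 25.5% in HFD females and 3.4% in control females and one at its transcript end at 2.6% in HFD females and 13% in control females. Acacb and Acadl, enzymes of fatty acid oxidation and its control, were higher, at 13.5% and 16.4% in HFD females, against 2.6% and 3.7% in control females.

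Signalling genes of the Wnt, BMP, Notch and related pathways had regions in 11 of 70 genes (15.7%, beside 8.34% over all genes). Of these regions 7 were lower and 4 higher (63.6% lower, beside 71.8% over all named genes). Members of the BMP and activin branch were lower: the transcript end of the ligand Bmp7 was at 0.7% in HFD females and 32% in control females, an intron of its receptor Bmpr2 at 0.2% in HFD females and 20.7% in control females, and an intron of the activin receptor Acvr2b at 4.3% in HFD females and 16.3% in control females. The BMP effector Smad9 went the other way (10.9% in HFD females, 0.3% in control females). Besides Wnt4, an exon of Rbpj, the DNA-binding partner of Notch (20.6% in HFD females, 0% in control females), and an intron of Sfrp1, a secreted Wnt antagonist (18.3% in HFD females, 1.7% in control females), were higher. Of 27 homeobox, T-box and Pax genes 4 (14.8%) had a region, also beside 8.34% over all genes. The largest difference among them in the downward direction was in an intron of Pax2, a regulator of kidney and urogenital development (1.1% in HFD females, 41.2% in control females). Prox1 was also lower and Cux2 higher.

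**Figure D4:**
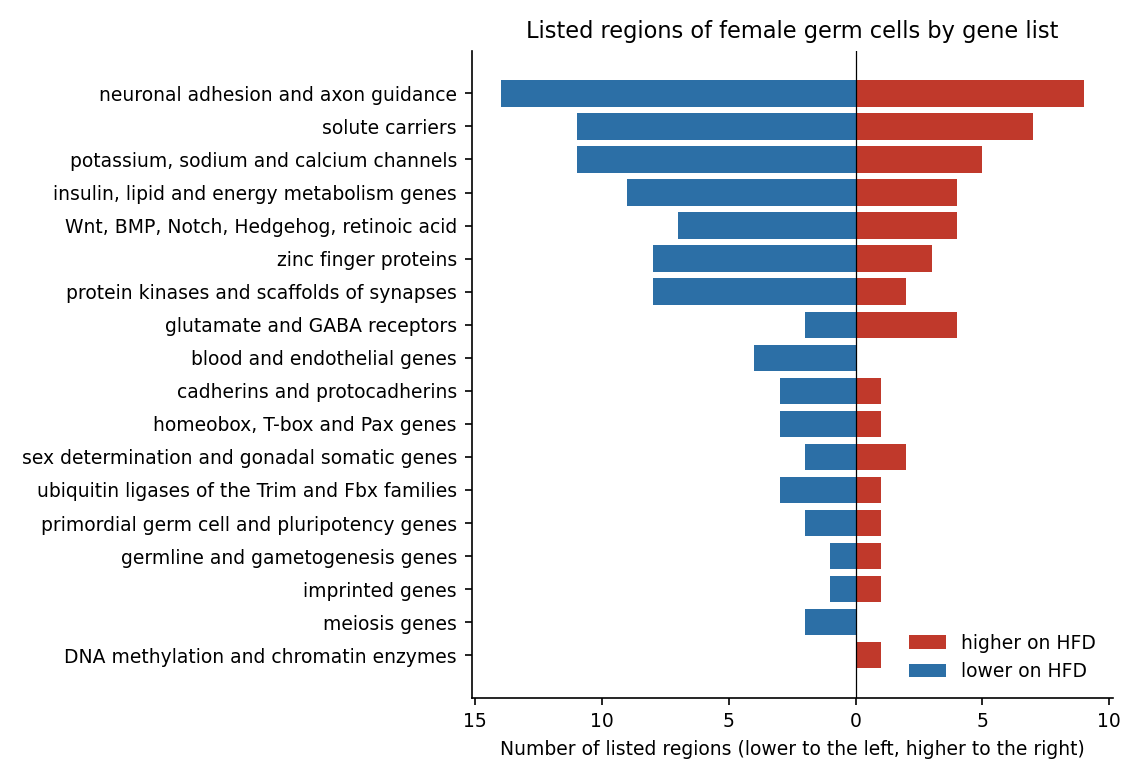
Number of listed regions per gene list that were higher (red, to the right of 0) or lower (blue, to the left of 0) in HFD females; a gene may stand in more than 1 list. Neuronal adhesion and axon guidance genes had the most regions, 14 lower and 9 higher, and glutamate and GABA receptor genes had 2 lower and 4 higher.

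Several gene families with roles in neurons and membrane transport were counted in the same way, with no test of their shares. Neuronal adhesion and axon guidance genes had 14 lower and 9 higher regions in 19 of 89 genes (21.3%, beside 8.34% over all genes), with a median difference of -10.6 points. Next to the Ntrk2 regions, an intron of the presynaptic adhesion gene Nrxn2 was lower (4.9% in HFD females, 25.9% in control females), and next to the Tenm3 regions an intron of Tenm4 was higher (20% in HFD females, 4.9% in control females). Scaffolds and kinases of synapses had 8 lower and 2 higher regions in 8 of 54 genes (14.8%), among them introns of Syn3 (1.8% in HFD females, 23.1% in control females) and Rims1 (4.1% in HFD females, 24.5% in control females). Glutamate and GABA receptor genes had 2 lower and 4 higher regions in 6 of 38 genes (15.8%): Grik4 was at 0.6% in HFD females and 28.1% in control females, and Grin2b at 29.1% in HFD females and 2.7% in control females. Potassium, sodium and calcium channel genes had 11 lower and 5 higher in 12 of 120 genes (10%), led by Kcnk5 (1.5% in HFD females, 31.9% in control females), Cacna1c (1.5% in HFD females, 31.0% in control females) and Scn2a (31.2% in HFD females, 0.6% in control females). Solute carriers had 11 lower and 7 higher in 17 of 210 genes (8.10%), led by Slc38a7 (0.5% in HFD females, 39.8% in control females) and Slc25a29 (13.9% in HFD females, 50.3% in control females). The number of regions per gene was not set against gene length. None of the 96 olfactory and vomeronasal receptor genes with a region in any table had one here.

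Most genes had a single region, 606 of 687. Of the 81 genes with more, 41 had only lower regions, 5 only higher ones and 35 both. The 4 genes with at least 4 regions all had both. Abcc4 had 6, of which 4 were lower and 2 higher: besides the LTR region, the next region at chr15:103703563-103703682 was at 2.3% in HFD females and 19.5% in control females, while regions at chr15:103884447-103884526 and chr15:103921232-103921321 were higher (30.5% and 25.2% in HFD females, 4.0% and 0.4% in control females). Camta1, a calmodulin-binding transcription activator, had 3 lower and 3 higher regions, with differences of -19.2 to 11.4 points. Itpr2, an intracellular calcium channel, had 3 lower regions, the largest in an exon (2.1% in HFD females, 34.1% in control females), and 1 higher. Kalrn, a signalling protein of dendritic spines, had 3 lower, the largest in an intron (1.8% in HFD females, 34.2% in control females), and 1 higher.

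The diet comparison in males rests on other samples, although the labels do not say whether male and female samples shared dams. Its table lists 10084 regions (96.8% of those its FDRs were adjusted over, 97.2% of the candidate falls and 95.5% of the candidate rises), and 290 female regions (15.8%) overlapped 291 male regions (2.89%) by at least 1 bp, in 293 pairs. The male table is itself mostly lower, with 7461 regions lower and 2623 higher in HFD males (74.0% lower). HFD animals were lower in both sexes in 136 pairs and higher in both in 32, and the sexes differed in direction in 125, 67 of them lower in HFD females and higher in HFD males and 58 the reverse. Identical coordinates were found in 51 pairs, and in none of the pairs named next. Each male level given here is therefore that of a male region that only partly matches the female one. Pax2 was at 37.5% in HFD males and 14% in control males, opposite to females, and the overlapping part of Trim71 was at 6.0% in HFD males and 38.9% in control males, also opposite. Txndc5 was at 1.8% in HFD females and 34.5% in control females, and at 33.1% in HFD males and 9.9% in control males. Ntrk2, where the regions share 5 bp, was at 3.6% in HFD males and 20.4% in control males, and Kif26b was at 0.6% in HFD females and 33.8% in control females and at 11% in HFD males and 39.7% in control males. An exon of Abhd17a was at 0% in HFD females and 34.5% in control females, and at 13.3% in HFD males and 30.2% in control males. No test of the difference between the sexes could be made from group means.

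The tables that set control males at GD16 and at GD18 against control females at GD16 use the same control female samples as the diet comparison, so their lists are not independent of it and only levels are given. They list 99.2% (GD16) and 88.3% (GD18) of the regions their FDRs were adjusted over. At 57 regions all 3 tables had the same coordinates and control female mean. The median level over these was 2.2% in HFD females, 11.2% in control males at GD16, 4.0% in control males at GD18 and 27.1% in control females. Regions stand in this set because control females differ from each of the other groups there. The intron of Kazn was at 4.3% in HFD females, 14.6% in control males at GD16, 2.9% in control males at GD18 and 52.4% in control females. An exon of Cox4i1, a subunit of cytochrome c oxidase, was at 1.5% in HFD females, 12.9% in control males at GD16, 3.3% in control males at GD18 and 41.8% in control females. Control females were highest at 41 of the 57 regions, control males at GD16 at 15 and HFD females at 1. An intron of Hsf2bp was at 9.5% in HFD females, 42.8% in control males at GD16, 8.0% in control males at GD18 and 20.6% in control females. Trim71 was the region where HFD females were highest, with 59.8% in HFD females, 43.5% in control males at GD16, 7.2% in control males at GD18 and 22.3% in control females.

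**Figure D5:**
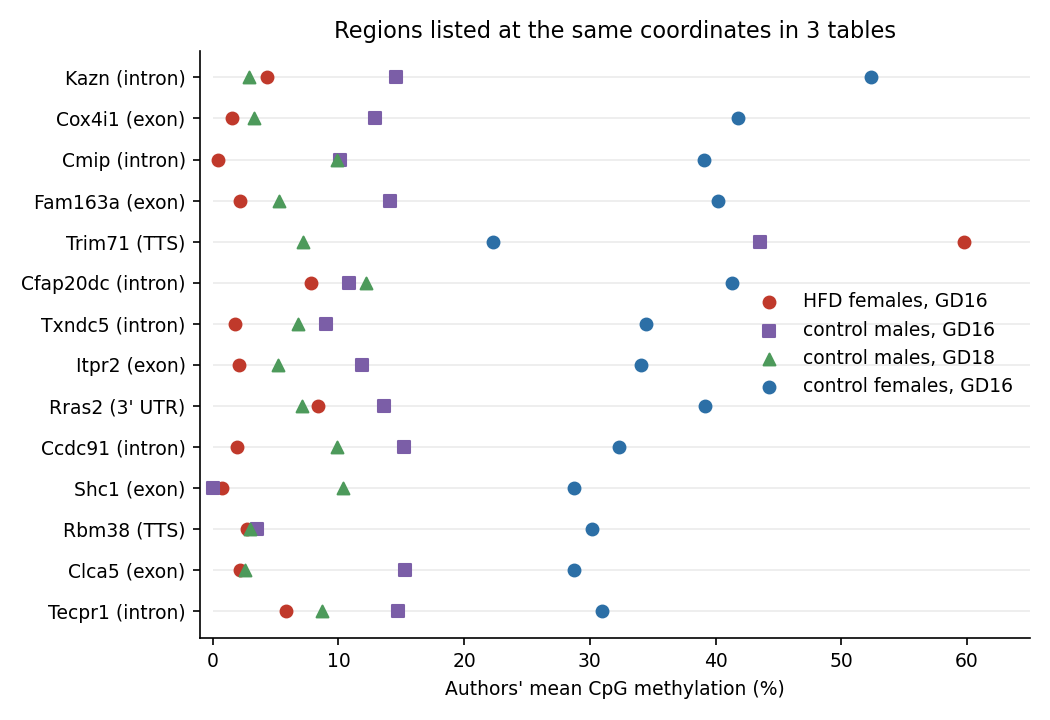
Authors' mean CpG methylation (%) in HFD females at GD16 (red circles), control males at GD16 (purple squares), control males at GD18 (green triangles) and control females at GD16 (blue circles) at the 14 named regions with the largest diet difference among those listed at the same coordinates in the 3 tables. Control females are highest at all of them except Trim71, where HFD females are highest; over all 57 such regions control males at GD16 are highest at 15, none of which is drawn. The tables share the control female samples.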

How the data were processed

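DNA of sorted germ cells was bisulfite-treated and captured with a rat target panel, per the labels' protocols, and the submitters' processing notes list Bowtie2 and Bismark 0.19.0. The design text states segments of at least 50 bp, yet 50 listed regions were shorter. Per the file headers, the authors averaged CpG methylation per group as a fraction from 0 to 1, multiplied here by 100. The signed difference is a score deposited by the authors, whose sign matched the means. A p-value (two-sample t-test, per the file headers) and an FDR were deposited by the authors; the unit of that test is not stated. Multiplying an FDR by its rank and dividing by its p gave the number of regions it was adjusted over. For the diet comparisons the rank was taken within each direction and the numbers of both directions were added. For the comparisons of control males with control females it was taken over both directions together. Build: not given in the sources used here. Depth is unknown, and no test across samples was run.

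Gene names came from RefSeq (GRCr8), which matched 692 of 735 identifiers (94.1%); 3 regions were left unnamed because their symbol lies on another chromosome there. Members, gene lists and families were chosen with earlier results of these data known. The genes named are, by size of the difference, the 10 first in each direction (again among regions with at least 10 CpGs), the 6 first at promoters in each direction, up to 4 per gene list or family, the 6 first in CpG islands and in the overlap with the male table, the 4 first on the X chromosome, the authors' 50-point table, the 6 regions with the most CpGs and genes with at least 4 regions. Mir207, Mir297, Ppard, Abca1, Acacb, Acadl, Acvr2b, Sfrp1, Smad9 and Cox4i1 were chosen after their values were seen. Counts and intersections were checked on simulated data. The tools were scipy 1.17.1, numpy 2.4.6, pandas 2.3.3 and matplotlib 3.10.9 under Python 3.11.15.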

Additional observations from a re-analysis of the deposited data

How the results depend on the processing

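With at least 10 CpGs per region, 284 lower and 100 higher regions remained (73.96% lower), with medians of 2.55% in HFD females and 14.35% in control females at the lower regions and of 14.7% in HFD females and 3.0% in control females at the higher ones. With differences of at least 20 points there were 300 lower and 89 higher regions (77.12% lower), with medians of 1.95% in HFD females and 28.4% in control females at the lower regions and of 28.2% in HFD females and 1.6% in control females at the higher ones. At an FDR of at most 0.01 there were 916 lower and 360 higher regions (71.79% lower). The control median of the lower regions was then 16.55%. The share of lower regions with at least 10 CpGs was 74.74% in intergenic, 87.5% in exonic and 92.31% in promoter regions, and it turned to a minority in 3' UTRs (33.33%, 2 of 6), LTR elements (20%, 1 of 5) and DNA transposons (0%, 0 of 1); the cause was not tested. Overlap with the male table dropped from 290 regions to 194 where 50% of each region had to be shared. It was 51 regions at identical coordinates. With at least 10 CpGs it was 33 regions, from a smaller base of 384 female and 2624 male regions. These 33 are 8.59% of that female base, beside 15.8% for the 290 of the whole list. Of 57 values under alternatives, 34 were classed as the same, 20 as moved and 3 as reversed. These classes do not follow the size of a change. The drop from 1313 to 916 lower regions and that from 290 to 194 overlapping regions were both classed as the same. The control median of 16.55%, beside 16.1% in the whole list, was classed as moved. The promoter definition by distance was not run, since the deposited tables used here give no distance. No paired analysis was possible because only group means were at hand, and no sample could be left out for the same reason. Unknown depth limits every level, most of all the 478 regions of 5 CpGs.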

Other observations

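Other gene families leaned lower in HFD females to about the extent of the whole list. Zinc finger genes had 8 lower and 3 higher regions in 10 of 125 genes (8%, beside 8.34% over all genes). These were led by introns of Zfp64 (0% in HFD females, 31.2% in control females) and Zfp608 (1.7% in HFD females, 21.4% in control females), while Zbtb40 had the largest rise. Cadherins and protocadherins had 3 lower and 1 higher in 3 of 39 genes (7.69%), led by the 3' UTR of the X-linked Pcdh19 (3.3% in HFD females, 20% in control females). An exon of Cdh1, E-cadherin, was at 2.1% in HFD females and 12.3% in control females. Of 57 Trim and Fbx ubiquitin ligase genes 4 (7.02%) had a region. There were 3 lower regions (Fbxl21, Fbxw9 and Trim23, with 1.6%, 4.5% and 0.9% in HFD females and 23.7%, 23.4% and 12.3% in control females), against the rise at Trim71.

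The numbers behind the deposited FDRs hold a coincidence between tables. With both directions ranked together, the FDRs of the table of control males at GD18 against control females fit an adjustment over 1832 regions. This equals the number of regions listed in the diet table of females. Where the diet table and the GD18 table gave the same coordinates (183 regions), the control female mean was the same at 164 and differed at 19 by up to 5.9 points, 16 of these with another number of CpGs. Against the table of control males at GD16, the mean was the same at 126 of 144 such regions and differed at 18 by up to 8.1 points, 17 of these with another number of CpGs. The cause was not tested.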
